A study of Mus musculus with 2 samples.

Results

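The ligands of the TNF superfamily were followed in cultured mouse CD4 T cells through 9 genes, namely Tnf, Lta, Ltb, Fasl, Cd40lg, Tnfsf8, Tnfsf10, Tnfsf11 and Tnfsf14. They were found on the expression array as the probe sets (groups of short probes against a transcript) that the platform annotation assigns to exactly 1 gene with one of these symbols, which gave 14 probe sets for 9 of 18193 named genes. The CD103+ Th1 culture held splenic CD4 T cells of C57BL/6 mice activated through the T cell receptor and CD28 with 3 ng/ml IL-4, 10 ng/ml IFN-γ and 3 ng/ml TGF-β. The Th1 culture held cells prepared and activated in the same way with 1 ng/ml IL-12 and 1 µg/ml of an IL-4-blocking antibody. Stimulation lasted 2 days and the cells were collected 3 days later. The labels give neither the age of the mice nor how many mice gave cells.

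TNF superfamily ligands are membrane proteins, some also released in soluble form, that assemble as trimers and cluster receptors on a neighbouring cell. Depending on the receptor the signal runs through TRAF adaptors to NF-κB, or through a death domain to caspases. Activated CD4 T cells use them to help B cells, to kill target cells, to instruct stromal and myeloid cells and to costimulate other T cells.

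Each culture was measured with 1 array, so there is no replicate check, no test and no p-value. A difference between the culture conditions and one between these particular cultures or arrays cannot be told apart, and in bulk RNA a change in the share of expressing cells cannot be told apart from a change in RNA per cell. Values are signal intensities in arbitrary units, and the medians over all probe sets were 78.0 in CD103+ Th1 against 78.8 in Th1. Because low signals are mostly background, a floor was set at the median of both arrays, 78.5. A signal under it was raised to it, so a gene under the floor on 1 array has only a bound ("at least N-fold"), and a gene under it on both arrays has no ratio. Ratios are CD103+ Th1 over Th1. Among all 17902 named probe sets above the floor on both arrays, the log2 ratio ran from -0.90 at the 5th percentile to 0.98 at the 95th.

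The ligands did not move as a group. Tnfsf10 and Tnfsf11 were higher in CD103+ Th1 and Tnfsf8 was lower there, each by 2-fold or more, and Tnf, Lta, Ltb and Fasl lay within 2-fold. Tnfsf14 gave only a bound, and Cd40lg was under the floor on both arrays. By gene, with the probe set of highest mean log2 signal standing for it, 2 of 8 measured ligands were at least 2-fold higher, beside 5.04% of all 11194 measured genes. In the other direction 1 of 8 was at least 2-fold lower, beside 4.87% of all genes. The median log2 ratio of the 8 genes was -0.09, against -0.03 over all measured genes. By probe set, 4 of 13 were at least 2-fold higher (5.02% of all 20208 measured probe sets) and 1 of 13 at least 2-fold lower (4.19%). The 4 higher probe sets belong to only 2 genes, 3 of them to Tnfsf10.

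**Figure D1:**
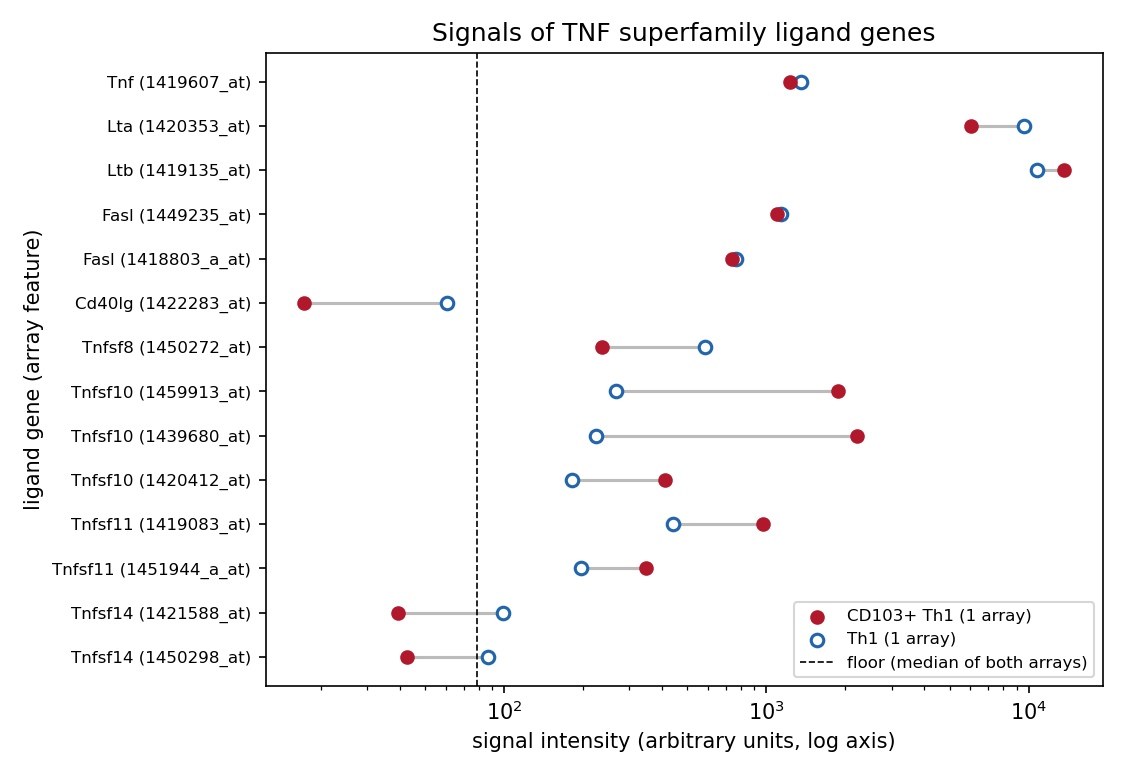
Signal intensity (log axis, arbitrary units) of each of the 14 ligand probe sets, grouped by gene, on the CD103+ Th1 array (filled) and the Th1 array (open), with the floor of 78.5 dashed. The gap is widest for the Tnfsf10 probe sets 1439680_at and 1459913_at among those above the floor, and Cd40lg lies left of the floor on both arrays.

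Tnfsf10 encodes TRAIL, a death ligand that triggers apoptosis through death domain receptors and is known as an interferon-inducible gene. Its brightest probe set, 1459913_at, had a signal of 1873 in CD103+ Th1 against 268 in Th1, a 7.0-fold higher level. The probe set 1439680_at gave 2209 in CD103+ Th1 against 224 in Th1, or 9.86-fold. The third, 1420412_at, gave 411 in CD103+ Th1 against 182 in Th1, or 2.26-fold. All 3 were thus higher in CD103+ Th1, and all 6 signals lay above the floor. Their size differed widely, with log2 ratios of 2.81, 3.30 and 1.18. The range was 2.13, and 0.257% of the 4666 genes with several probe sets above the floor on both arrays had one as wide, with a median range of 0.35. The smallest ratio came from the 1 probe set of the 3 that the annotation ties to a RefSeq mRNA. Of all measured probe sets, 0.312% had a ratio as high as that of 1459913_at, and 3.44% one as high as that of 1420412_at. With a floor at the 75th percentile of both arrays, 472, the log2 ratio of Tnfsf10 was 1.99, a bound.

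**Figure D2:**
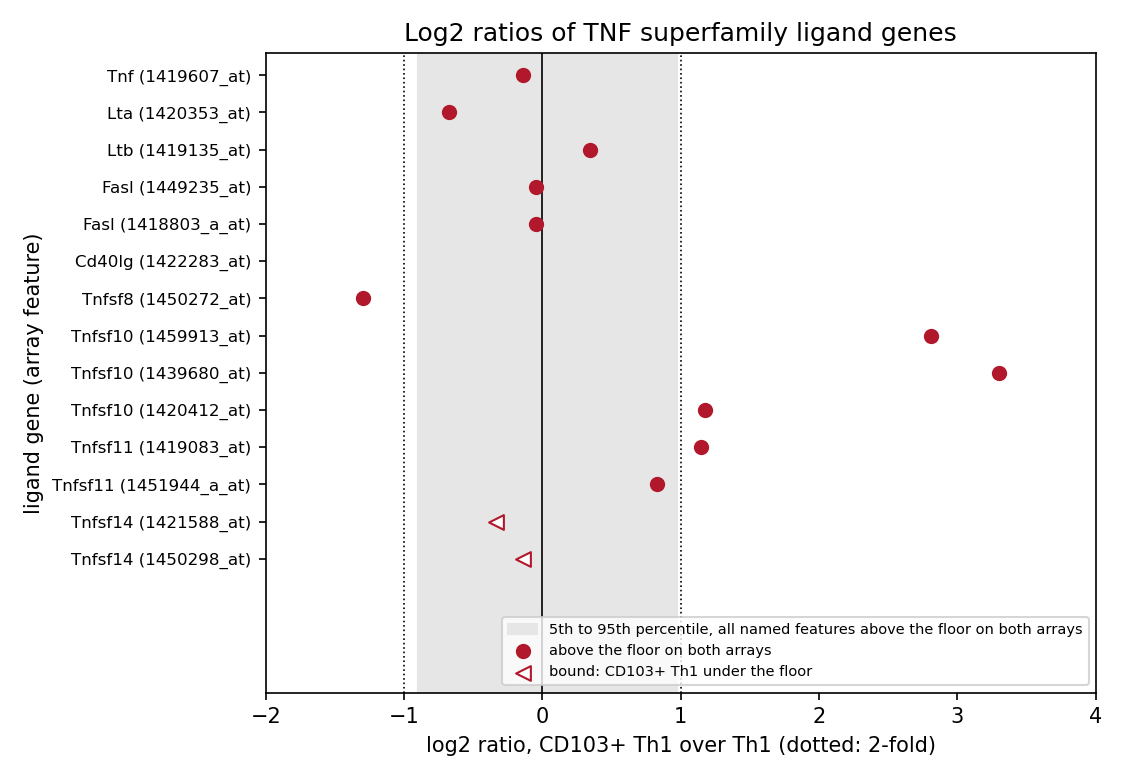
Log2 ratio of each ligand probe set, CD103+ Th1 over Th1, with bounds as open triangles and the 5th to 95th percentile of all named probe sets above the floor on both arrays (-0.90 to 0.98) shaded. The 3 Tnfsf10 probe sets and 1419083_at of Tnfsf11 lie right of the shaded range and Tnfsf8 lies left of it, while Cd40lg has no ratio.

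The promoter of Tnfsf10 is shown because the gene had the largest ratio of the 9. It is the 250 bases before the start of the gene in RefSeq on GRCm38.p6, at chr3:27316827-27317076 on the plus strand, written 5′ to 3′.
Tnfsf10: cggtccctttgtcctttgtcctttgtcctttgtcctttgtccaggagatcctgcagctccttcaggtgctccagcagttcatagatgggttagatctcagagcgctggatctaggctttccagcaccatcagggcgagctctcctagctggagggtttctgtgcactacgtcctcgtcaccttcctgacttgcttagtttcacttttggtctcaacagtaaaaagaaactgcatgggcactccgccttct
Promoter windows of this length were searched on both strands for 4 motifs. These were the STAT-binding GAS element (TTCNNNGAA), the core of the interferon-stimulated response element or ISRE (GAAANNGAAA), an NF-κB core (GGGNNNNNCC) and a T-box core (GGTGTGA). None of these letters occur in exact form in the Tnfsf10 window. The search allowed no mismatch, so it says nothing about near matches, sites elsewhere or a factor. Of all 32851 RefSeq promoter windows, 7.02% held the GAS letters, 2.98% the ISRE core, 45.8% the NF-κB core and 3.33% the T-box core. Windows were found for 8 of the 9 ligands, and none of the 8 held the ISRE or the T-box core.

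Fasl encodes Fas ligand, a further death ligand, which kills through Fas and limits T cell expansion. The probe set 1449235_at had a signal of 1100 in CD103+ Th1 against 1137 in Th1. The probe set 1418803_a_at had 738 in CD103+ Th1 against 763 in Th1. Both gave a log2 ratio of -0.05, or 1.03-fold lower, and so Tnfsf10 and Fasl differed in their ratios, with Tnfsf10 higher and Fasl close to equal. The difference between these genes was not tested.

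Ltb, Tnf and Lta lie next to each other on mouse chromosome 17 in the GRCm38.p6 gene table, inside the major histocompatibility complex. Tnf encodes the inflammatory cytokine TNF, with a signal of 1227 in CD103+ Th1 against 1350 in Th1 (log2 ratio -0.14). Lta encodes lymphotoxin α, which is secreted alone or held on the cell surface with lymphotoxin β. Its signal was 6035 in CD103+ Th1 against 9636 in Th1, 1.60-fold lower (log2 ratio -0.68). Ltb, for the membrane-bound lymphotoxin β, had 13699 in CD103+ Th1 against 10808 in Th1, 1.27-fold higher (log2 ratio 0.34). The genes of the lymphotoxin heterotrimer therefore had ratios of opposite sign, neither reaching 2-fold, on 1 probe set each. Over the 8 alternative settings the log2 ratios ran from -0.68 to -0.58 for Lta and from 0.34 to 0.42 for Ltb. With 1 bright probe set each, the other floors, the mean of probe sets and the use of fewer probe sets could not change these values. Only the scalings could have changed a sign, and they did not. Of measured probe sets, 9.63% had a ratio as low as that of Lta and 24.0% one as high as that of Ltb.

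The genes on either side of this cluster did not share 1 direction. Before Ltb in the gene table, Lst1 had 631 in CD103+ Th1 against 1106 in Th1 (log2 ratio -0.81). Further out, Aif1 had 157 in CD103+ Th1 against 69.9 in Th1, at least 2.01-fold higher. After Lta, Nfkbil1 had 1202 in CD103+ Th1 against 734 in Th1 (log2 ratio 0.71), and Atp6v1g2 had 146 in CD103+ Th1 against 68.1 in Th1, at least 1.85-fold higher.

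The promoters of Lta and Ltb are shown because these genes, on either side of Tnf, had opposite signs. Theirs were also the 2 of 8 ligand windows that held the GAS letters, beside 7.02% of all windows. Both are the 250 bases before the gene start in RefSeq on GRCm38.p6, Lta at chr17:35205352-35205601 on the minus strand and Ltb at chr17:35194257-35194506 on the plus strand. Capitals mark matches to the GAS or the NF-κB core letters.
Lta: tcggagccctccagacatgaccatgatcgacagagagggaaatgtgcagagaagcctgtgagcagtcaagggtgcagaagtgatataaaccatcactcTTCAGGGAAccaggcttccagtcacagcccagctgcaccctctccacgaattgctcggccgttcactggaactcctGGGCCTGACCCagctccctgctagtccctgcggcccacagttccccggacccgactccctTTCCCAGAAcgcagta
Ltb: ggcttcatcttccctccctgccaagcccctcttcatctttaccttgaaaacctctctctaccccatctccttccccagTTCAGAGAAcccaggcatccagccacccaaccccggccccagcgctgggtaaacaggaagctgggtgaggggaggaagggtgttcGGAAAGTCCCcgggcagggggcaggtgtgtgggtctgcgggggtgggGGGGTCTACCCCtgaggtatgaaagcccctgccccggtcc
Lta held the GAS letters starting 152 and 16 bases before the gene start, and Ltb 172 bases before it. The NF-κB core letters matched at 2 overlapping positions in Lta. In Ltb they matched at 4, of which 3 overlap. They also occur in 45.8% of all windows and in 6 of the 8 ligand windows. A match of letters is a description and not a binding site.

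Tnfsf11 encodes RANKL, the ligand of RANK, known for driving osteoclast formation and for T cell contact with dendritic cells. The probe set 1419083_at had a signal of 972 in CD103+ Th1 against 440 in Th1, 2.21-fold higher (log2 ratio 1.14). The probe set 1451944_a_at had 348 in CD103+ Th1 against 196 in Th1, 1.78-fold higher (log2 ratio 0.83). Both pointed the same way, and their range of 0.31 was near the median range of other genes. The 2-fold level depends on the probe set, since the mean log2 ratio of both was 0.99. Of measured probe sets, 3.70% had a ratio as high as that of 1419083_at.

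Tnfsf8 encodes CD30 ligand, which costimulates through CD30. Its 1 probe set, 1450272_at, had a signal of 237 in CD103+ Th1 against 582 in Th1, 2.45-fold lower (log2 ratio -1.29). Of measured probe sets, 2.04% had a ratio as low. With the floor at the 75th percentile, the CD103+ Th1 signal lay under it and the log2 ratio was bounded at -0.30.

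The promoters of Tnfsf11 and Tnfsf8 are shown as those of the other ligands past 2-fold in either direction. Both are the 250 bases before the gene start in RefSeq on GRCm38.p6, Tnfsf11 at chr14:78308044-78308293 and Tnfsf8 at chr4:63861285-63861534, both on the minus strand. Capitals mark matches to the NF-κB core letters.
Tnfsf11: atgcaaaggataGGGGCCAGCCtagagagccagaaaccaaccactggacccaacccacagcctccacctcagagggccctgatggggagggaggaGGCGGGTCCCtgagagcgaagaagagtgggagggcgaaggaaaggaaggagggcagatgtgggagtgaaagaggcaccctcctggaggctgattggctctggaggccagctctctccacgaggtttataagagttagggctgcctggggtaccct
Tnfsf8: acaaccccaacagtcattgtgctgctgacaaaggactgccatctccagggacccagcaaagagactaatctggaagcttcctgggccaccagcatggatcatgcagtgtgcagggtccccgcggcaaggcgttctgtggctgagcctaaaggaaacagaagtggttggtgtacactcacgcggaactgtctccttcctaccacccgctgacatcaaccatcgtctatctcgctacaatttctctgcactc
Tnfsf11 held the NF-κB core letters at 2 positions, starting 238 and 155 bases before the gene start. None of the 4 motifs matched in the Tnfsf8 window.

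Tnfsf14 encodes LIGHT, which binds the receptor HVEM and the lymphotoxin β receptor. Its probe set 1421588_at had a signal of 39.4 in CD103+ Th1 against 99.2 in Th1, and 1450298_at had 42.5 in CD103+ Th1 against 86.7 in Th1. Both were under the floor in CD103+ Th1 and just above it in Th1, so they were at least 1.26-fold and at least 1.10-fold lower. A floor at the 25th percentile, 21.2, put the log2 ratio of the gene at -1.33, past 2-fold. Cd40lg encodes CD40 ligand, the signal by which helper T cells activate B cells. Its 1 probe set, 1422283_at, had 17.2 in CD103+ Th1 against 60.3 in Th1, both under the floor. With the floor at 21.2 its log2 ratio was bounded at -1.51. For both genes the size of a difference was not measurable at this signal level, and whether it passes 2-fold depends on the floor.

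Several of these ligands are induced by T cell activation, so activation genes are given beside them. Of 8 measured genes in a list of 10, 0 differed by 2-fold, and the median log2 ratio was -0.09. Over all measured genes 5.04% were higher and 4.87% lower by 2-fold or more. The largest in size were Myc, with 2130 in CD103+ Th1 against 3479 in Th1, Icos, with 5443 in CD103+ Th1 against 8716 in Th1, and Nr4a1, with 165 in CD103+ Th1 against 247 in Th1. Il2 and Egr2 were under the floor on both arrays. The summed signal of the list was 21514 in CD103+ Th1 against 24180 in Th1, and its part in the ligand values was not tested.

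Other ligands of the superfamily also went both ways. Of 9 listed, 5 had a named probe set and 4 were measured. Of these, 1 was higher and 1 lower by 2-fold or more, beside 5.04% and 4.87% of all measured genes. Their median log2 ratio was -0.75 with Cd70 entered at its bound, so it is -0.75 or lower. Tnfsf13b, for the B cell survival factor BAFF, had 730 in CD103+ Th1 against 102 in Th1, 7.15-fold higher, and a second probe set gave a bound of 0.52 on the log2 scale. Tnfsf9, for 4-1BB ligand, a costimulator, had 274 in CD103+ Th1 against 993 in Th1, 3.63-fold lower. Cd70, for the ligand of the costimulatory receptor CD27, had 7.34 in CD103+ Th1 against 143 in Th1, at least 1.82-fold lower. Tnfsf4, for OX40 ligand, had a log2 ratio of -0.64, and Eda was under the floor.

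Receptors of the 9 ligands were mostly under 2-fold, as were all measured genes, of which 5.04% were higher and 4.87% lower by as much. Of 12, 8 were measured. By the probe set standing for each gene, 1 of these was higher by 2-fold or more and 0 were lower by as much. The median log2 ratio was 0.20. Cd40, the receptor of CD40 ligand and a marker of antigen-presenting cells, had 701 in CD103+ Th1 against 28.5 in Th1, at least 8.93-fold higher, and its 3 probe sets had bounds from 2.35 to 3.16 on the log2 scale. Tnfrsf11a, for the RANKL receptor RANK, had 144 in CD103+ Th1 against 82.8 in Th1, both near the floor. Tnfrsf8, for the CD30 ligand receptor CD30, had 85.6 in CD103+ Th1 against 146 in Th1 (log2 ratio -0.77), also near the floor. For TRAIL, the death receptor gene Tnfrsf10b had 48.0 in CD103+ Th1 against 88.8 in Th1. The decoy receptor gene Tnfrsf22 had 87.5 in CD103+ Th1 against 167 in Th1, 1.91-fold lower, and Tnfrsf23 was under the floor. A second probe set of Tnfrsf22 gave a log2 ratio of -1.21 or lower, past 2-fold. Signals of the TRAIL receptor genes were thus close to the floor or under it, which leaves their ratios poorly measured. Fas was above the floor in both cultures, with 1300 in CD103+ Th1 against 837 in Th1 (log2 ratio 0.64). The TNF receptor genes Tnfrsf1a (982 in CD103+ Th1, 824 in Th1) and Tnfrsf1b (1344 in CD103+ Th1, 1211 in Th1) had log2 ratios of 0.25 and 0.15. Ltbr and Tnfrsf14, whose products bind lymphotoxin or LIGHT, were under the floor on both arrays.

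Among adaptors and effectors downstream of these receptors, 0 of 11 measured genes differed by 2-fold. Over all measured genes 5.04% were higher and 4.87% lower by as much, so 0 of 11 is close to that share. The median log2 ratio was 0.31, and 9 were above 0. Among the 9, Tradd, Cflar and Fadd had other probe sets as low as -0.59, -0.23 and -0.10. The largest in size were Traf6 (859 in CD103+ Th1, 495 in Th1) and Traf5 (661 in CD103+ Th1, 445 in Th1), which encode signalling adaptors, and Bid (340 in CD103+ Th1, 554 in Th1), a link from caspase-8 to mitochondria. Casp8 had 7058 in CD103+ Th1 against 9229 in Th1.

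Genes for shedding of ligands and control of mRNA decay had a median log2 ratio of 0.41, against -0.03 over all measured genes. Of the 12 listed, 9 were above 0. By 2-fold or more, 0 were higher and 1 was lower, beside 5.04% and 4.87% of all measured genes. Rhbdf2, for iRhom2, which brings the TNF-releasing protease ADAM17 to the surface, had 282 in CD103+ Th1 against 610 in Th1, 2.16-fold lower. Adam17 itself had 1264 in CD103+ Th1 against 1138 in Th1. Adam10, for a related protease, had 5716 in CD103+ Th1 against 3396 in Th1. Its 3 measured probe sets had log2 ratios from 0.16 to 0.75. Furin, for the convertase that activates such proteases, had 934 in CD103+ Th1 against 1805 in Th1, 1.93-fold lower. The Zfp36 genes encode decay factors that bind AU-rich elements, as in the Tnf message. Zfp36l1 had 3885 in CD103+ Th1 against 2263 in Th1, Zfp36l2 had 8424 in CD103+ Th1 against 5330 in Th1, and Zfp36 had 1283 in CD103+ Th1 against 814 in Th1, with log2 ratios of 0.78, 0.66 and 0.66.

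**Figure D3:**
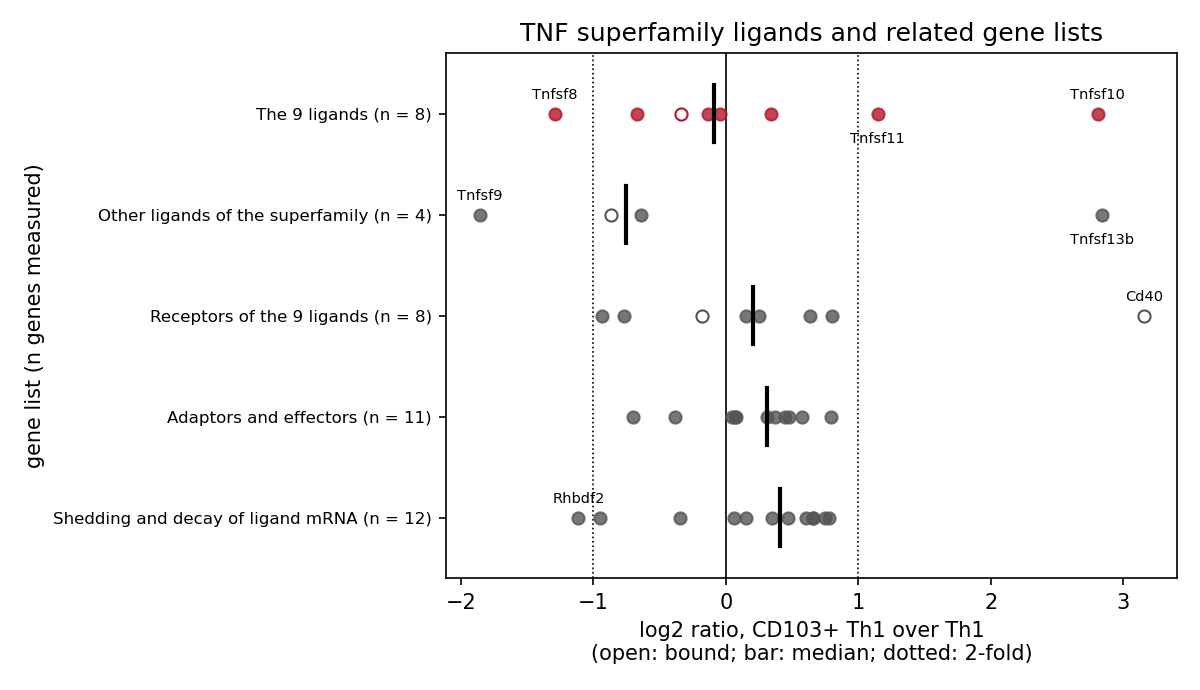
Log2 ratios, CD103+ Th1 over Th1, of the measured genes of the 9 ligands and of 4 related lists, 1 point per gene, with bounds open, the median as a bar and genes past 2-fold named. Tnfsf10, Tnfsf13b and Cd40 stand to the right at 2.81, 2.84 and at least 3.16. With bounds entered at their bound, the list medians lie between -0.75 and 0.41. For the other ligands the median is thus -0.75 or lower.

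The T cell label was checked with 10 markers, of which the 9 with a named probe set were above the floor and 0 differed by 2-fold. Over all measured genes 5.04% were higher and 4.87% lower by as much. Cd4 had 1081 in CD103+ Th1 against 973 in Th1, and the largest ratios in size were those of Cd247 (log2 ratio 0.63), Cd3e (0.42) and Cd5 (0.34). Because Tnf, Tnfsf13b and Cd40 are also expressed by antigen-presenting cells, markers of other cells are given beside them.

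Of 9 B cell markers, all 3 that were measured had ratios above 0, with a median log2 ratio of 1.16. Of these, 2 were at least 2-fold higher and 0 lower, beside 5.04% and 4.87% of all measured genes. Of the 9, 0 reached 4 times the floor. Cd79b had 244 in CD103+ Th1 against 75.8 in Th1, at least 3.11-fold higher, Bank1 had 238 in CD103+ Th1 against 107 in Th1, 2.23-fold higher, and Cd22 had 99.0 in CD103+ Th1 against 81.9 in Th1. The other 6, including Cd79a, Ms4a1 and Pax5, were under the floor on both arrays, and the summed signal of the list was 775 in CD103+ Th1 against 514 in Th1. Of 11 myeloid and dendritic cell markers 6 were measured, 1 at least 2-fold higher and 1 lower by as much (5.04% and 4.87% of all measured genes). Mpeg1 had 660 in CD103+ Th1 against 5.75 in Th1, at least 8.41-fold higher, Cd68 had 104 in CD103+ Th1 against 233 in Th1, 2.25-fold lower, and Csf1r had 118 in CD103+ Th1 against 187 in Th1. The 5 under the floor were Itgam, Itgax, Lyz2, Cd14 and Xcr1. Of the 6 measured, 2 had ratios above 0 and 4 below. The sum, which includes signals under the floor, was 1192 in CD103+ Th1 against 886 in Th1. Its direction rests on Mpeg1 alone. Of 3 NK cell markers the 1 measured, Klre1, had 286 in CD103+ Th1 against 125 in Th1, 2.28-fold higher, while Ncr1 and Klra8 were under the floor, and the sum was 327 in CD103+ Th1 against 160 in Th1. Both CD8 T cell markers were higher, Cd8a 4.41-fold and Cd8b1 2.28-fold, with a sum of 3647 in CD103+ Th1 against 1163 in Th1. Beside these NK and CD8 markers past 2-fold, 5.04% of all measured genes were higher by as much. The 5 probe sets of Cd8a disagreed in size, with log2 ratios between 0.24 and 2.16. The part of other cells in the ligand values was not tested.

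The genes nearest to Tnfsf10 in log2 ratio, among 8107 that reached 4 times the floor on their brighter array, were Ipcef1 (4568 in CD103+ Th1, 646 in Th1) and Tspan9 (2602 in CD103+ Th1, 376 in Th1), with log2 ratios of 2.82 and 2.79 beside the 2.81 of Tnfsf10. Pdlim4 (559 in CD103+ Th1, 9.10 in Th1) came next by its bound, but its log2 ratio is known only to be at least 2.83, so its likeness is not measured. Over 2 arrays such likeness means only a similar ratio.

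**Figure D4:**
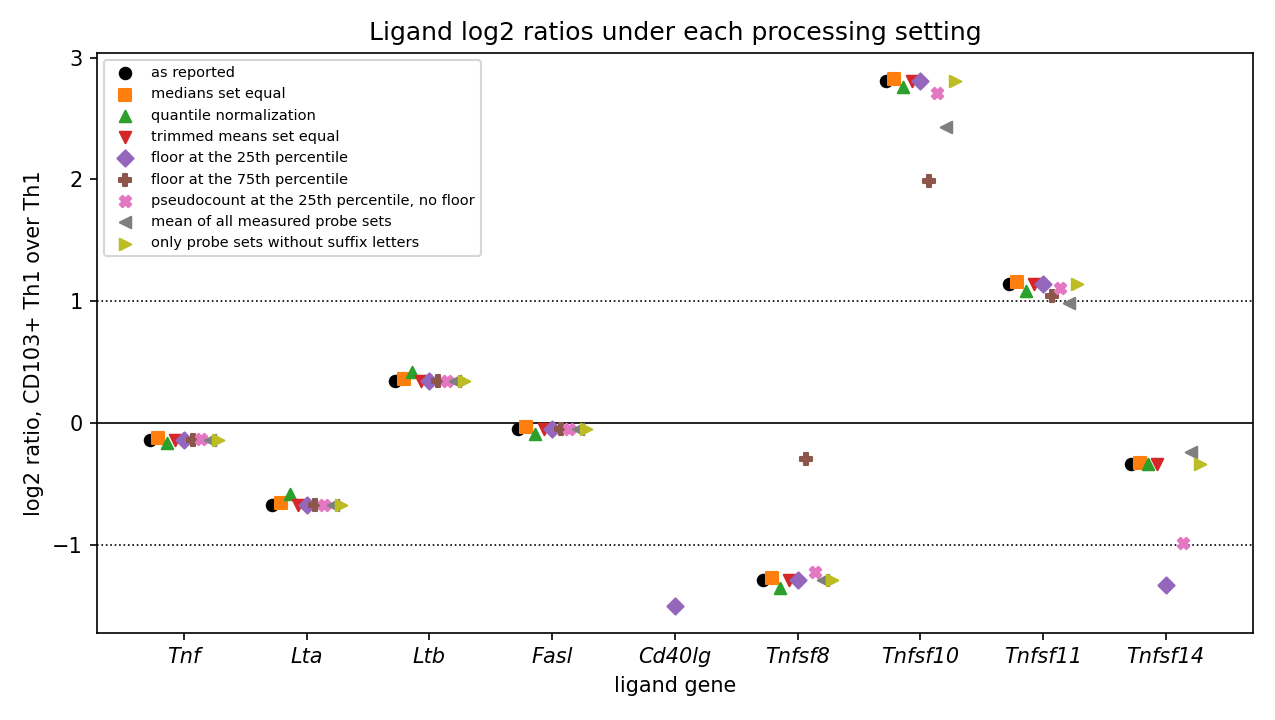
Log2 ratio of each ligand gene, CD103+ Th1 over Th1, as reported and under 8 alternative settings, with dotted lines at 2-fold; values for Tnfsf14, Cd40lg and, with the higher floor, Tnfsf8, Tnfsf10 and Tnfsf11 are bounds where a signal lay under the floor. Plotted values of Tnfsf10 run from 1.99, which is only a lower bound, to 2.82. No setting took its probe set with the smallest log2 ratio, 1.18, alone. Tnfsf8, Tnfsf11 and Tnfsf14 each lie on the other side of a 2-fold line under 1 setting.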

How the data were processed

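Total RNA of 2 cultures was labelled with biotin and hybridised to 1 Affymetrix array each. Deposited values are linear signal intensities, 1 per probe set, made with the Affymetrix GCOS software, per the submitters' processing notes; its version, scaling target and filters are not given in the sources used here. Of 45037 probe sets, 34945 had 1 gene symbol in the platform annotation, 932 several and 9160 none listed. Symbols were updated by gene identifier to the GRCm38.p6 gene table. No further scaling was applied, as 2% trimmed means were 498 on both arrays.

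Ratios, with the floor at 78.5, were computed with Python 3.11.15, numpy 2.4.6 and pandas 2.3.3, and the steps were tested on simulated data. The floor was passed by 49.9% of probe sets on the CD103+ Th1 array and by 50.1% on the Th1 array. Precision is limited by the number of arrays. The members and lists were chosen with earlier results of these data known. Genes of related and marker lists are named where they are among the 3 largest ratios of a list in size or past 2-fold. Others, such as Tnfsf4, Eda, Fas, Tnfrsf1a, Tnfrsf1b, Tnfrsf8, Ltbr, Tnfrsf14, Tnfrsf10b, Tnfrsf23, Casp8, Adam10, Adam17, Zfp36, Zfp36l2, Il2, Egr2 and the markers given as under the floor, were named after their values were seen. List genes with no named probe set were not analysed here. Promoter sequences are from RefSeq, GRCm38.p6. The alternatives were 3 scalings, 2 other floors, a pseudocount without floor, the mean of probe sets, fewer probe sets, and thresholds of 1.5-fold and 4-fold.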

Additional observations from a re-analysis of the deposited data

How the results depend on the processing

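Over the ligand genes, 60 of 63 log2 ratios under alternative settings kept their direction and their side of 2-fold, and 0 reversed. Many of the 63 could not change, so this count is no measure of robustness. The signals of Tnf, Lta, Ltb and Fasl lay above every floor. Genes with 1 probe set have no other to average, and the trimmed means were already equal. Leaving out probe sets with suffix letters changed no ligand gene's value. The 3 exceptions were Tnfsf8 at -0.30 with the floor at the 75th percentile, Tnfsf11 at 0.99 with the mean of probe sets, and Tnfsf14 at -1.33 with the floor at the 25th percentile. Cd40lg gained a ratio, -1.51, at that lower floor. In each case the floor or the averaging itself made the change. The count of ligand probe sets past 2-fold, 5 as reported, was 8 with the floor at the 25th percentile (4 higher, 4 lower) and 3 with it at the 75th. At a 4-fold threshold it was 2. Shares over all probe sets were taken only at the reported setting, where 5.02% were higher and 4.19% lower. These probe set counts therefore cannot be set against the whole array. The count of ligand genes, 3 as reported, was 5 with the lower floor (2 higher, 3 lower), where 6.17% of all genes were higher and 7.63% lower, and 1 at 4-fold (higher), where the shares were 0.965% and 0.768%. It stayed within 1.5 times under the other settings, which were 3 scalings, the higher floor, a pseudocount, the mean of probe sets, probe sets without suffix letters and 1.5-fold. The shares over all genes moved too, to 3.72% higher and 2.78% lower at the higher floor and to 12.4% and 13.4% at 1.5-fold. Under the rest of these settings they lay between 4.27% and 5.86%. The median of the ligand genes ranged from -0.14 to -0.05. No paired analysis was possible because each group holds 1 array. Low signal limits Tnfsf14 and the receptor genes Cd40 and Tnfrsf10b to bounds, and leaves Cd40lg and 4 of 12 receptor genes without a ratio.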
